A study of Homo sapiens with 12 samples.

Results

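The 10 genes described here encode the 4 human tropomyosins (TPM1, TPM2, TPM3 and TPM4), 3 actins (ACTB, ACTG1 and ACTA2) and 3 proteins of the smooth muscle type contractile apparatus (TAGLN, CNN1 and MYL9). They were taken by gene symbol out of 18739 genes in the deposited tables, and all 10 were found and passed the filter on low counts that left 15051 genes to test. The set was chosen from measured values of these same libraries, so that its levels and changes are given as a description and support no further statement. RNA was sequenced from SK-N-SH, an established human neuroblastoma line whose parental culture is known to hold both neuroblast-like and flat, substrate-adherent cells. The labels form 4 groups of 3 libraries, all from wild-type cells of this 1 line: cells given chaetocin at 50 nM, cells transfected with siSUV39H1, cells transfected with the control siNC, and cells given the solvent DMSO. Chaetocin is a fungal metabolite known as an inhibitor of the histone H3 lysine 9 methyltransferase SUV39H1, though it is not specific for it, and siSUV39H1 targets the mRNA of that enzyme. The series' design text speaks of short hairpin constructs (shNC and shSUV39H1) and of biological triplicates, whereas the sample labels, followed here, speak of siRNA; neither gives the length of treatment. Whether the libraries of a group came from separate cultures is not stated per sample, so the tests measure the spread between these libraries.

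Tropomyosins are coiled-coil proteins that lie end to end along actin filaments and govern which myosins and severing proteins gain access to them. In muscle they take part in the calcium switch of contraction, and in other cells they stabilise stress fibres, which are bundles of actin, myosin and tropomyosin that pull on the substrate. Many genes of this system carry a CArG box, the motif bound by serum response factor (SRF), whose cofactors MRTFA and MRTFB are held in the cytoplasm by monomeric actin and enter the nucleus when actin polymerises.

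The libraries held 18004632 to 18235528 expected counts in the chaetocin group and 19595821 to 19976995 in the other 9 libraries. More genes had a count above 0 with chaetocin, 17692 to 17748, than in the other libraries, 16125 to 16308. SUV39H1 itself, the targeted gene, fell by 1.49 ± 0.11 on the log2 scale with chaetocin relative to DMSO and by 1.60 ± 0.11 with siSUV39H1 relative to siNC, and its log2 change was -0.30 ± 0.10 with siNC relative to DMSO (edgeR's quasi-likelihood test, log2 fold change ± standard error). With chaetocin the median change of all tested genes was 0.04 with TMM scaling, the trimmed mean of M-values, and 0.19 with scaling by library totals alone, and the changes below are those with TMM.

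With chaetocin, 9 of the 10 genes were called lower and 1, MYL9, was called higher than with DMSO, at a Benjamini-Hochberg adjusted p under 0.05 over all tested genes in edgeR's quasi-likelihood test. In this comparison 38.4% of all tested genes were called lower and 41.1% higher, and since the genes were chosen on these changes nothing is read from their count. Their median log2 change was -1.60, beside 0.04 for all tested genes. With siSUV39H1, 3 genes (TPM2, TPM4 and ACTA2) were called higher and 1 (TPM1) lower than with siNC, against 15.3% called higher and 18.6% called lower among all tested genes. Without siNC replicate 1 or 3 only TPM4 was called higher, and the number called lower was 0 without siNC replicate 1 or 2 or siSUV39H1 replicate 2 and 2 without siNC replicate 3 or siSUV39H1 replicate 1. The control transfection itself differed from the solvent: with siNC, 5 genes (TPM2, TPM4, ACTA2, TAGLN and CNN1) were called lower and 0 higher than with DMSO (also 0 at an unadjusted p under 0.05, in DESeq2 and in limma), against 18.2% lower and 17% higher among all tested genes. The siNC libraries enter both of the last 2 comparisons, and the DMSO libraries enter both the first and the last. In RNA from whole cultures, fewer cells of a type and less RNA per cell cannot be told apart.

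**Figure D1:**
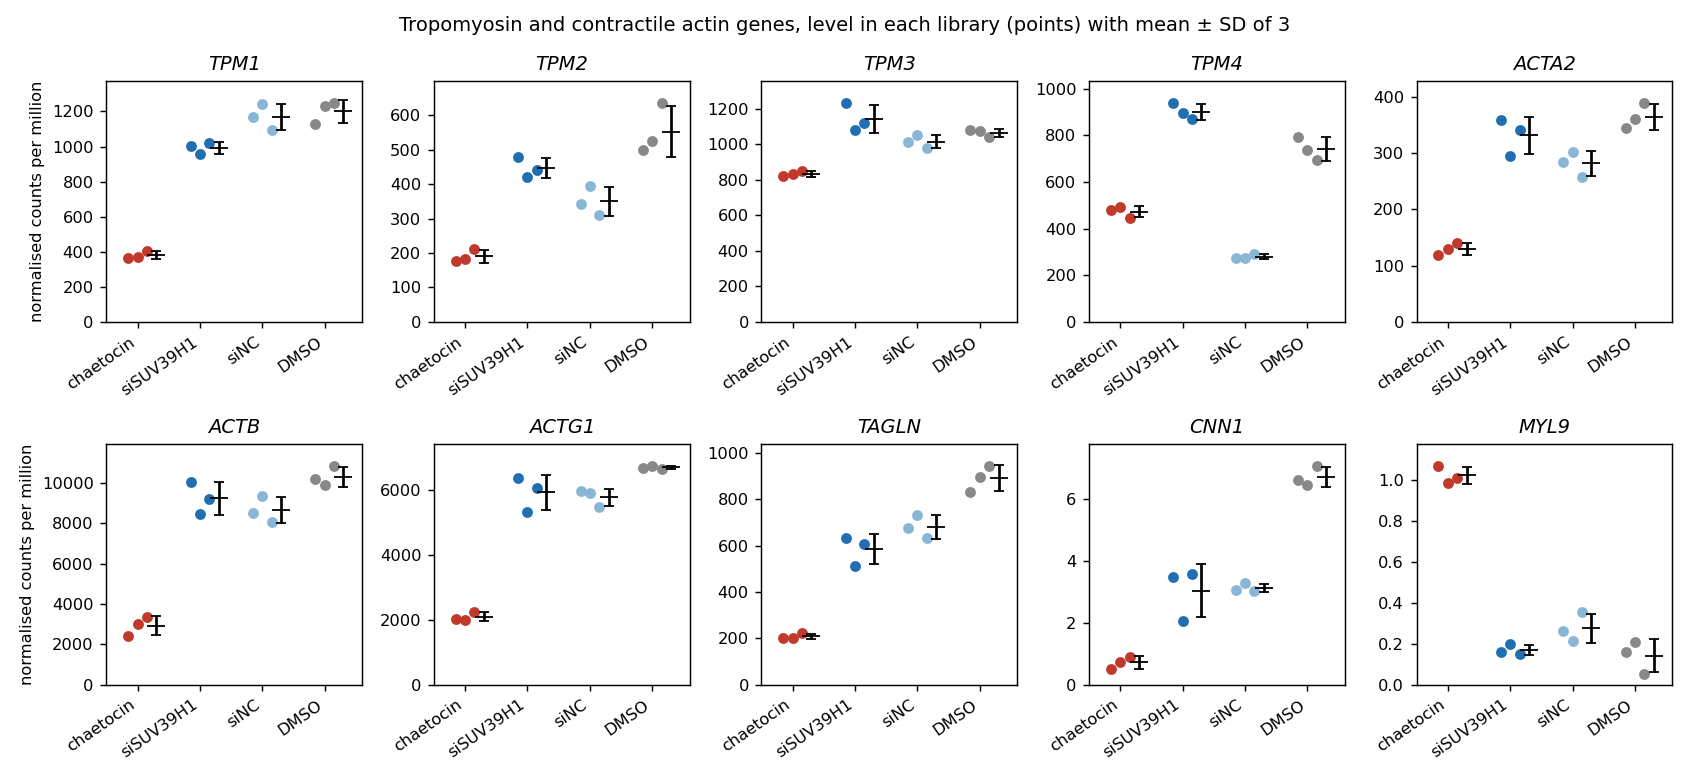
Normalised counts-per-million values (CPM) of each of the 10 genes in every library (points) with the mean ± SD of 3 libraries (black bars), for chaetocin, siSUV39H1, siNC and DMSO from left to right, each gene on its own linear axis that starts at 0. Chaetocin libraries lie below all DMSO libraries for every gene but MYL9, where they lie above, and TPM4 has its lowest level in siNC.

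The cytoplasmic actins ACTB (chr7:5527148-5530601, GRCh38.p14) and ACTG1 (chr17:81509971-81512799) build most filaments of non-muscle cells. ACTB had 2399.9, 2979 and 3345 normalised counts-per-million (CPM) in the chaetocin libraries, 10062, 8459 and 9177 with siSUV39H1, 8521, 9357 and 8069 with siNC and 10178, 9876 and 10853 with DMSO. The highest chaetocin library lay far below the lowest of any other group, while siSUV39H1 and siNC overlapped. The log2 change of ACTB was -1.82 ± 0.12 with chaetocin relative to DMSO, a 3.54-fold lower level, and 0.09 ± 0.11 with siSUV39H1 relative to siNC, which was not called.

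ACTG1 had 2008, 1998 and 2237 CPM with chaetocin, 6368, 5305 and 6060.5 with siSUV39H1, 5940.1, 5895 and 5460.1 with siNC and 6669, 6736 and 6631 with DMSO. Again the chaetocin libraries stood apart and those of siSUV39H1 and siNC overlapped. Its log2 change was -1.68 ± 0.09 with chaetocin, 0.04 ± 0.09 with siSUV39H1 relative to siNC and -0.21 ± 0.09 with siNC relative to DMSO; the last 2 were not called. ACTB and ACTG1 are near-identical in their coding sequence and have many processed pseudogenes. None of their 24 expected counts was a whole number within 0.001, as happens when reads are divided between similar transcripts, and the split between the 2 genes is uncertain to that extent.

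ACTA2 (chr10:88935074-88991337), the smooth muscle alpha-actin that marks contractile and myofibroblast cells, is normally a minor actin outside such cells. It had 119, 129.9 and 139.6 CPM with chaetocin, 359, 295 and 342 with siSUV39H1, 284, 302 and 258 with siNC and 344, 360.2 and 389 with DMSO. The chaetocin libraries were the lowest, and the siSUV39H1 libraries overlapped both siNC and DMSO. The log2 change of ACTA2 was -1.49 ± 0.09 with chaetocin, -0.37 ± 0.09 with siNC relative to DMSO and 0.24 ± 0.09 with siSUV39H1 relative to siNC. The last call was lost when siNC library 1 or 3 or siSUV39H1 library 1 or 3 was left out (log2 change between 0.18 and 0.25), and in a fit of the 6 siRNA libraries alone (0.24).

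TAGLN (chr11:117199294-117207465) encodes transgelin, an actin-bundling protein of smooth muscle and of cells with stress fibres. It had 203, 199.8 and 221 CPM with chaetocin, 635, 513 and 608 with siSUV39H1, 677, 734 and 632 with siNC and 832, 897 and 945 with DMSO. DMSO was the highest group without overlap, siNC and siSUV39H1 overlapped slightly, and chaetocin was far below. The log2 change was -2.10 ± 0.09 with chaetocin (4.29-fold lower), -0.39 ± 0.09 with siNC relative to DMSO and -0.22 ± 0.09 with siSUV39H1 relative to siNC. The siSUV39H1 difference was not called in the fit of all libraries and was called without siNC replicate 3 (-0.27) or siSUV39H1 replicate 1 (-0.28).

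CNN1 (chr19:11538851-11550323) encodes calponin 1, which binds actin and tropomyosin and restrains myosin in smooth muscle. It was a low-expressed gene here, with 10, 14 and 17 counts in the chaetocin libraries, 66, 42 and 71 with siSUV39H1, 59, 62 and 60 with siNC and 125, 123 and 134 with DMSO. The chaetocin and DMSO groups stood clear of each other and of both siRNA groups, which overlapped. The fitted log2 change was -3.23 ± 0.23 with chaetocin, and the sums of 41 and 382 counts gave a 9.44-fold lower level (exact 95% interval 6.83 to 13.4, counting error only). With siNC relative to DMSO it was -1.10 ± 0.19 and with siSUV39H1 relative to DMSO -1.15 ± 0.19, both called, while siSUV39H1 against siNC gave a ratio of 0.969 with an interval of 0.783 to 1.20.

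MYL9 (chr20:36541519-36551447) encodes the regulatory myosin light chain of smooth muscle and non-muscle myosin, whose phosphorylation switches the motor on. It was nearly silent, with 21.0, 19 and 19 counts in the chaetocin libraries, 3, 4 and 3 with siSUV39H1, 5, 4 and 7 with siNC and 3, 4 and 1 with DMSO. All 3 chaetocin libraries lay above all others, and MYL9 passed the filter on low counts only through them, so that it had to differ. The ratio of the sums, 59 to 8 counts, was 7.28 after scaling (exact 95% interval 3.46 to 17.6, counting error only), and the fitted log2 change was 2.81 ± 0.39. Between the other groups the counts were too few to show a difference: siSUV39H1 against siNC gave 0.612 (0.248 to 1.43) and siNC against DMSO 1.96 (0.792 to 5.29). On a per-length scale MYL9 stayed at 0.770 or less in transcripts-per-million units (tpm) in every library, so that the contractile light chain that moved against the rest of the set was also its least expressed gene.

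**Figure D2:**
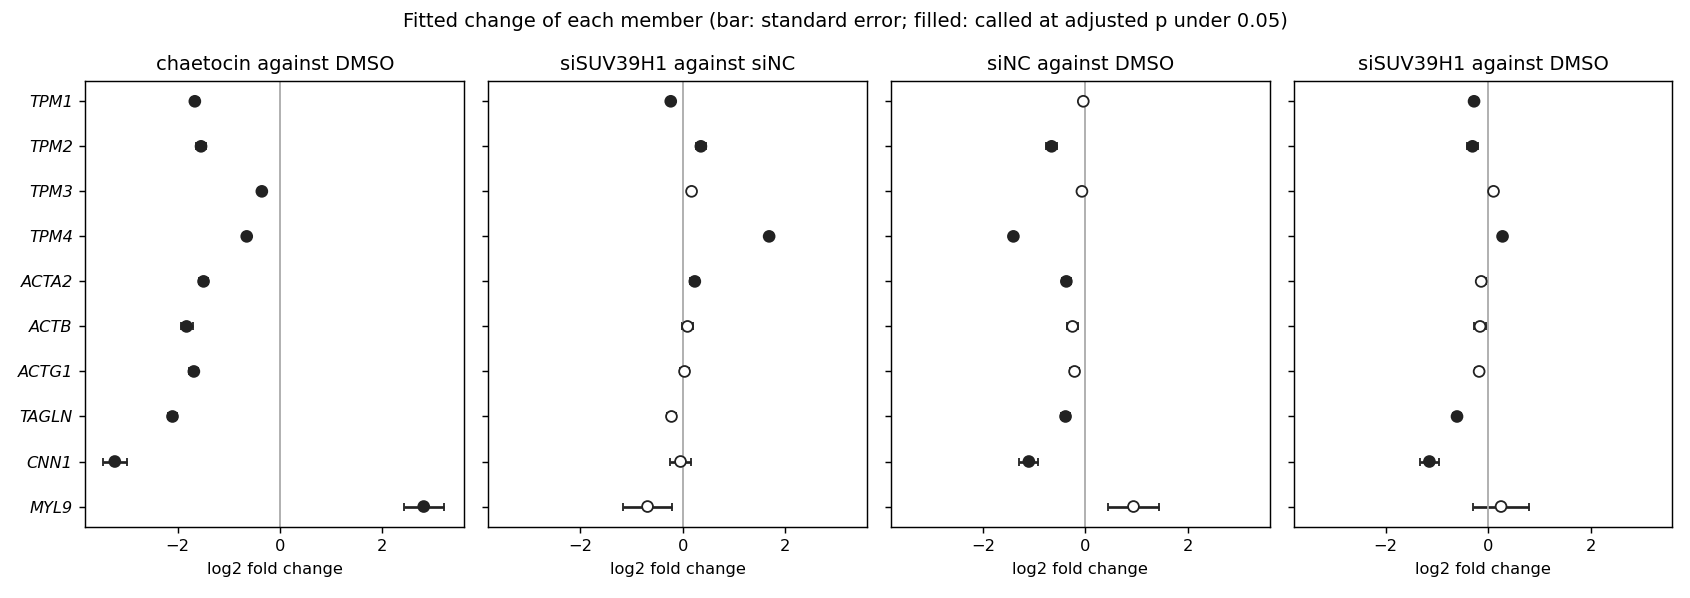
Log2 fold change of each gene (points) with its standard error (bars) in 4 comparisons, filled where the adjusted p in edgeR's quasi-likelihood test was under 0.05. With chaetocin 9 genes lie left of 0 and MYL9 right of it, and TPM4 lies at 1.69 for siSUV39H1 against siNC and at -1.41 for siNC against DMSO, 2 panels that share the siNC libraries.

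Among the tropomyosins, TPM1 (chr15:63042747-63071915) gives rise to long muscle and stress fibre isoforms as well as short ones. It had 363, 370.2 and 406 CPM with chaetocin, 1005, 955 and 1020.4 with siSUV39H1, 1167, 1241 and 1096 with siNC and 1127, 1231 and 1249 with DMSO. Chaetocin was lowest by a wide margin, siSUV39H1 lay just below siNC and DMSO, and siNC and DMSO overlapped each other. Its log2 change was -1.66 ± 0.07 with chaetocin (3.17-fold lower), -0.23 ± 0.07 with siSUV39H1 relative to siNC and -0.04 ± 0.07 with siNC relative to DMSO, which was not called. The siSUV39H1 call was lost when siNC replicate 1 (-0.22), siNC replicate 2 (-0.19) or siSUV39H1 replicate 2 (-0.21) was left out.

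TPM2 (chr9:35681993-35690056), the beta-tropomyosin of muscle and stress fibres, had 177, 182 and 210.5 CPM with chaetocin, 479, 421 and 442 with siSUV39H1, 342, 395 and 312 with siNC and 498, 525 and 636 with DMSO. The 4 groups did not overlap and ran upward in the order chaetocin, siNC, siSUV39H1, DMSO. The log2 change was -1.54 ± 0.11 with chaetocin, 0.36 ± 0.10 with siSUV39H1 relative to siNC and -0.66 ± 0.10 with siNC relative to DMSO. The siSUV39H1 call was lost without siNC replicate 1 (0.35) or siNC replicate 3 (0.28).

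TPM3 (chr1:154155308-154192100) is the source of short cytoskeletal isoforms and of slow muscle tropomyosin. It had 819, 831 and 848 CPM with chaetocin, 1234, 1079.9 and 1122 with siSUV39H1, 1015, 1052 and 980.0 with siNC and 1079, 1075 and 1040.4 with DMSO. The chaetocin libraries were below all others, siNC and DMSO overlapped, and siSUV39H1 lay above siNC. The log2 change with chaetocin was -0.35 ± 0.07, a 1.28-fold lower level that was the smallest fall among the 9 genes called lower. With siSUV39H1 relative to siNC it was 0.17 ± 0.07 and not called. It was called without siSUV39H1 replicate 2 (0.21), with scaling by library totals alone (0.21), in DESeq2 (0.18) and in limma's fit of tpm values (0.28 with a pseudocount of 1).

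TPM4 (chr19:16067538-16103002), which encodes mainly a short tropomyosin of the non-muscle cytoskeleton, did not have its lowest level with chaetocin. It had 481, 493 and 445 CPM with chaetocin, 939, 894 and 872 with siSUV39H1, 273, 276 and 291 with siNC and 794, 738 and 694 with DMSO. The 4 groups did not overlap, and siNC, not chaetocin, was the lowest. With chaetocin the log2 change relative to DMSO was -0.65 ± 0.07, less than that of TPM1 or TPM2. With siSUV39H1 TPM4 rose by 1.69 ± 0.07 on the log2 scale relative to siNC, 3.22-fold, and 99.4% of the tested genes had a smaller or more negative change. The same gene fell by 1.41 ± 0.07 with siNC relative to DMSO, 2.65-fold, where 1.47% of tested genes had a more negative change. Set against DMSO instead, TPM4 with siSUV39H1 differed by 0.28 ± 0.07, so that most of the distance between the siRNA groups was also a distance between siNC and the solvent. Leaving out any single library kept the TPM4 change between 1.66 and 1.72 for siSUV39H1 against siNC and between -1.46 and -1.35 for siNC against DMSO.

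The 3′ untranslated region (UTR) of TPM4 was looked at because an siRNA can also act on mRNAs that match only a short stretch of it. Every 7-base sequence held by the 3′ UTRs of at least 100 tested genes was ranked by how far those genes differed between siSUV39H1 and siNC, with UTR length taken into account. Of 16039 such sequences, CGGAGAA had the highest rank. TPM4 and TPM3 held it once each, and the other 8 genes did not. The 2 sites are shown 5′ to 3′ as RNA-sense DNA of GRCh38 from the GENCODE annotation, with the 7-base sequence in capitals:
TPM4: ttttgtatCGGAGAAgctttgag
TPM3: cctcttccCGGAGAAtccagctg
The capitals lie at chr19:16101494-16101500 on the plus strand, 148 bases into the UTR of TPM4, and at chr1:154157456-154157462 on the minus strand, 177 bases into that of TPM3. The sequence was found from the expression changes themselves, so that the following values describe it and test nothing. It was held by 399 of 14754 genes (2.70%), whose mean log2 change with siSUV39H1 relative to siNC was 0.15, against -0.02 for the other genes. With siNC relative to DMSO, 31.6% of the 399 genes were called lower, against 18.1% of the genes without it. The siNC libraries enter both comparisons, and CGGAGAA was not among the 3 lowest-ranked sequences for siNC relative to DMSO. Those 3 were each held by at least 3165 genes, and the ranking favours sequences held by many genes. Base composition was not taken into account, so that nothing is read from the absence of CGGAGAA there. The median change of the 399 genes with siSUV39H1 relative to DMSO was -0.01, as it was for the genes without CGGAGAA. TPM4 had the 3rd highest siSUV39H1 against siNC change among the 399 genes. The sequence at the other end of the ranking, GTCTTCA, had a ranking score of -13.7, against 5.14 for CGGAGAA. The score is the length-adjusted difference between genes with and without the sequence over its standard error across genes. It grows with the number of genes that hold the sequence, so that the 2 scores do not compare the size of the changes. GTCTTCA was held by 2158 genes (14.6%), whose mean change with siSUV39H1 relative to siNC was -0.12, against 0.01 for the other genes. It occurred in none of the 10 UTRs. The siRNA sequences were not used here, so neither 7-base sequence was compared with them, and CGGAGAA is not shown to match an siRNA. The part of these sequences in the TPM4 and TPM3 values was not tested.

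**Figure D3:**
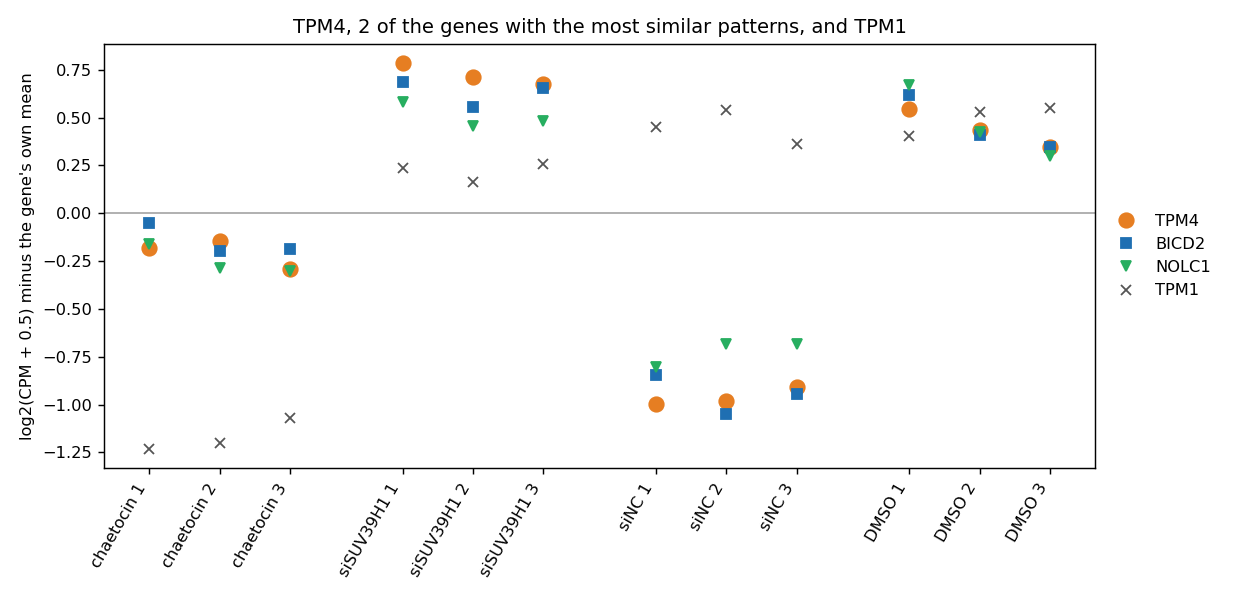
Log2 of CPM plus 0.5, centred on each gene's own mean, in every library for TPM4, for BICD2 and NOLC1, the nearest to it in pattern over 12 libraries and the third nearest, and for TPM1. TPM4, BICD2 and NOLC1 are lowest in siNC, while TPM1 is lowest in chaetocin.

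The gene whose pattern over the 12 libraries was nearest to TPM4, by the root mean square difference of centred log2 values, was BICD2 (0.0914), a dynein adaptor, and the third nearest was NOLC1 (0.174), a nucleolar phosphoprotein. BICD2 averaged 29.1 ± 1.72 CPM with chaetocin, 50.2 ± 2.42 with siSUV39H1, 16.5 ± 1.18 with siNC and 44.5 ± 4.58 with DMSO (SD, n = 3 each), the same order of groups as TPM4. The 3′ UTRs of BICD2 and NOLC1, as annotated, did not hold CGGAGAA. The nearest genes to the other members were different ones, for example TMCC2 for TPM1 (0.0488), MPST for ACTA2 (0.0379), ID2 for ACTG1 (0.0486) and PREP for ACTB (0.0719). Nearest to TAGLN were ABHD14B (0.0839), SMARCD3 (0.0898) and PDLIM7 (0.0941), in that order. PDLIM7 encodes a LIM protein known to bind beta-tropomyosin. Within the set, ACTB and ACTG1 differed by a root mean square of 0.112 and TPM2 and ACTA2 by 0.127. TPM4 was 0.591 to 0.978 away from each of the other 9 genes, MYL9 reached farther, at 0.679 to 1.43, and TPM3 was at 0.435 to 0.809. Pearson's r between TPM4 and those 9 genes ran from -0.35 to 0.47 over the 12 libraries, as a description of libraries that fall into 4 groups.

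Levels of different genes can be set side by side only per transcript length, and for this the deposited transcripts-per-million values are used, written tpm in lower case because TPM here names genes. On that scale the order in DMSO was ACTB (10234 ± 327, SD, n = 3), ACTG1 (6259 ± 259), TPM1 (1296 ± 37.7), TPM2 (874 ± 82.0), TPM3 (596 ± 33.3), TPM4 (549.9 ± 55.4), ACTA2 (470.3 ± 12.2), TAGLN (416 ± 11.9), CNN1 (7.94 ± 0.260) and MYL9 (0.0900 ± 0.0557). TPM3 and TPM4 overlapped in that order, and the other neighbours did not. With chaetocin TPM3 (515 ± 2.60) was the most abundant tropomyosin, ahead of TPM1 (458 ± 16.4). Together the 10 genes made up 0.678% to 0.787% of the summed tpm of all genes with chaetocin, 1.99% to 2.13% with siSUV39H1, 1.78% to 1.80% with siNC and 2.04% to 2.11% with DMSO, of which most was actin.

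TPM4 made up the smallest part of the summed tropomyosin level in siNC cells. TPM4 supplied 22.9% ± 1.77 of the summed tropomyosin level with chaetocin, 21.8% ± 0.740 with siSUV39H1, 8.06% ± 0.652 with siNC and 16.6% ± 1.71 with DMSO (SD, n = 3). The siNC share lay below all others, and the chaetocin and siSUV39H1 shares lay above those of DMSO. TPM1 supplied 26.96% ± 0.789 with chaetocin, 34.8% ± 1.04 with siSUV39H1, 48.6% ± 0.270 with siNC and 39.1% ± 1.03 with DMSO. TPM3 supplied 30.3% ± 0.386 with chaetocin, against 17.96% ± 1.03 with DMSO. A share can change because 1 of the others does without any change in the gene's own level. ACTB held 57.7% ± 3.07 of the actin level with chaetocin, 60.7% ± 0.669 with siSUV39H1, 59.8% ± 1.18 with siNC and 60.3% ± 1.24 with DMSO. ACTA2 held 2.97% ± 0.0997 with chaetocin, 2.73% ± 0.0642 with siSUV39H1, 2.52% ± 0.0463 with siNC and 2.77% ± 0.118 with DMSO. Its siNC shares lay below those of the other 9 libraries.

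The summed tropomyosin level was 1700 ± 13.1 tpm with chaetocin, 3462 ± 50.7 with siSUV39H1, 2680.1 ± 15.7 with siNC and 3315 ± 9.57 with DMSO. The ratio of actin to tropomyosin was 2.95 to 3.53 with chaetocin, 4.65 to 5.08 with siSUV39H1, 5.52 to 5.61 with siNC and 5.01 to 5.27 with DMSO, lowest with chaetocin without overlap. The ratio of ACTA2 to TAGLN was 1.43 to 1.59 with chaetocin and 1.502 to 1.54 with siSUV39H1, against 1.13 to 1.15 with siNC and 1.11 to 1.14 with DMSO. The 4 tropomyosin genes share similar exons, and 47 of their 48 expected counts were not whole numbers, so that reads were divided between transcripts; which isoforms of each gene were made cannot be read from gene totals.

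**Figure D4:**
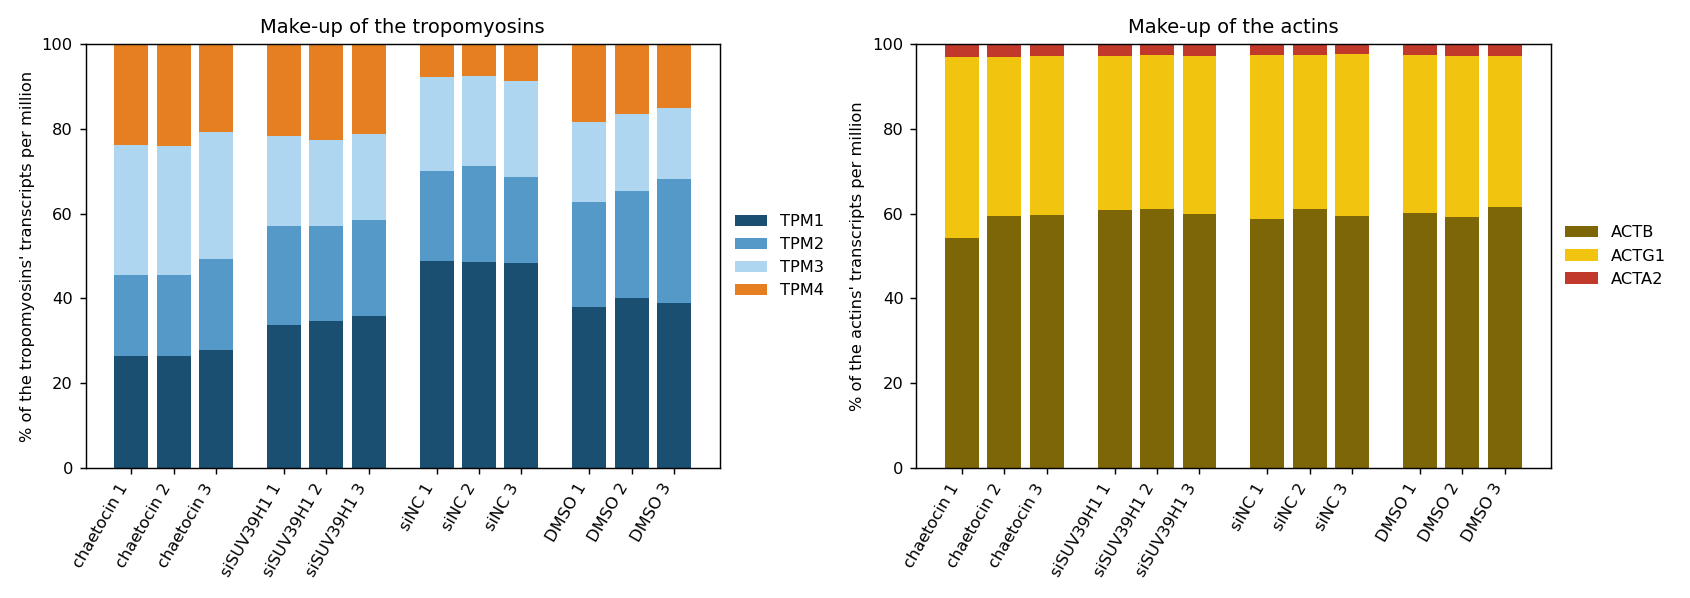
Share of each gene in the summed tpm of the 4 tropomyosins (left) and of the 3 actins (right), as stacked bars for every library of chaetocin, siSUV39H1, siNC and DMSO. TPM4 takes 7.53% to 8.79% of the tropomyosins in siNC and more than that in every other library, while ACTB takes 54.2% to 61.6% of the actins over all 12 libraries.

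Other genes of the actin system were taken from 2 lists by function, drawn up with results of these data known. Of 30 genes for actin filament binding proteins, 19 were called lower and 10 higher with chaetocin, where 38.4% of all tested genes were called lower and 41.1% higher; the median log2 change was -0.49 for the list and 0.04 for all tested genes. TMOD1, the tropomodulin that caps the pointed ends of tropomyosin-coated filaments, fell most: it averaged 3.41 ± 0.267 CPM with chaetocin and 143 ± 20.6 with DMSO, a log2 change of -5.39 ± 0.12 (edgeR adjusted p = 7.74e-15). Its relative TMOD3, which is found in most cells, rose by 1.27 ± 0.17, as did LIMA1 (1.38 ± 0.10), an actin cross-linker. TGFB1I1, a focal adhesion protein, fell, with a change of -2.05 ± 0.09. With siSUV39H1 relative to siNC, 6 of the 30 were called higher and 13 lower, beside 15.3% higher and 18.6% lower among all tested genes, so that the number higher was near the general share. They included TMOD2 (0.76 ± 0.22) and CNN2 (0.53 ± 0.08), the calponin of non-muscle cells, which rose, and TAGLN2 (-0.71 ± 0.08), the widespread relative of transgelin, and LIMA1 (-0.71 ± 0.10), which fell. The number called higher was 3 without siNC replicate 2 or siSUV39H1 replicate 2 or 3. With siNC relative to DMSO, where 17% of all tested genes were called higher and 18.2% lower, 7 were called higher, among them LIMA1 (0.67 ± 0.10) and PDLIM5 (0.60 ± 0.10), and 11 lower, among them TMOD1 (-1.22 ± 0.09) and TAGLN3 (-0.97 ± 0.13).

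Of 15 genes in the list of other actomyosin motor genes, which also holds the muscle actins ACTA1, ACTC1 and ACTG2, 12 were tested. With chaetocin 8 were called lower and 3 higher, beside the 38.4% lower and 41.1% higher among all tested genes, with a median of -0.43. ACTG2, at a mean of 2.19 CPM over all libraries, fell most (-2.65 ± 0.26) and is counted again among the smooth muscle markers. The heavy chain of non-muscle myosin IIB, MYH10, fell to 32.5 ± 1.78 CPM with chaetocin, against 129 ± 17.1 with DMSO (-1.99 ± 0.10), and MYLK, the kinase that activates the regulatory light chain, fell as well (-1.63 ± 0.08). MYL12A, a regulatory light chain closely related to MYL9, rose to 863 ± 31.5 CPM with chaetocin, against 494 ± 18.7 with DMSO (0.80 ± 0.08), and was far above the level of MYL9 in every group. PPP1R12B, a subunit of myosin phosphatase, rose by 0.45 ± 0.12. With siSUV39H1 relative to siNC, where 15.3% of all tested genes were called higher and 18.6% lower, 4 were called higher and 1 lower. Those higher included MYH10 (0.63 ± 0.09) and PPP1CB (0.58 ± 0.08), the catalytic phosphatase subunit. The 1 lower was MYL12A (-0.23 ± 0.07), a call that was lost without siNC replicate 1 or 2 or siSUV39H1 replicate 2 and in the fit of the 6 siRNA libraries alone. With siNC relative to DMSO, 2 were called higher (PPP1R12B, 0.66 ± 0.12, and MYL12A, 0.45 ± 0.07) and 3 lower, MYH9 (-0.34 ± 0.08) and MYH10 (-0.25 ± 0.09) among them. These numbers were near the general shares of 17% higher and 18.2% lower among all tested genes. Without siNC replicate 1 or DMSO replicate 2 the number lower was 1.

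**Figure D5:**
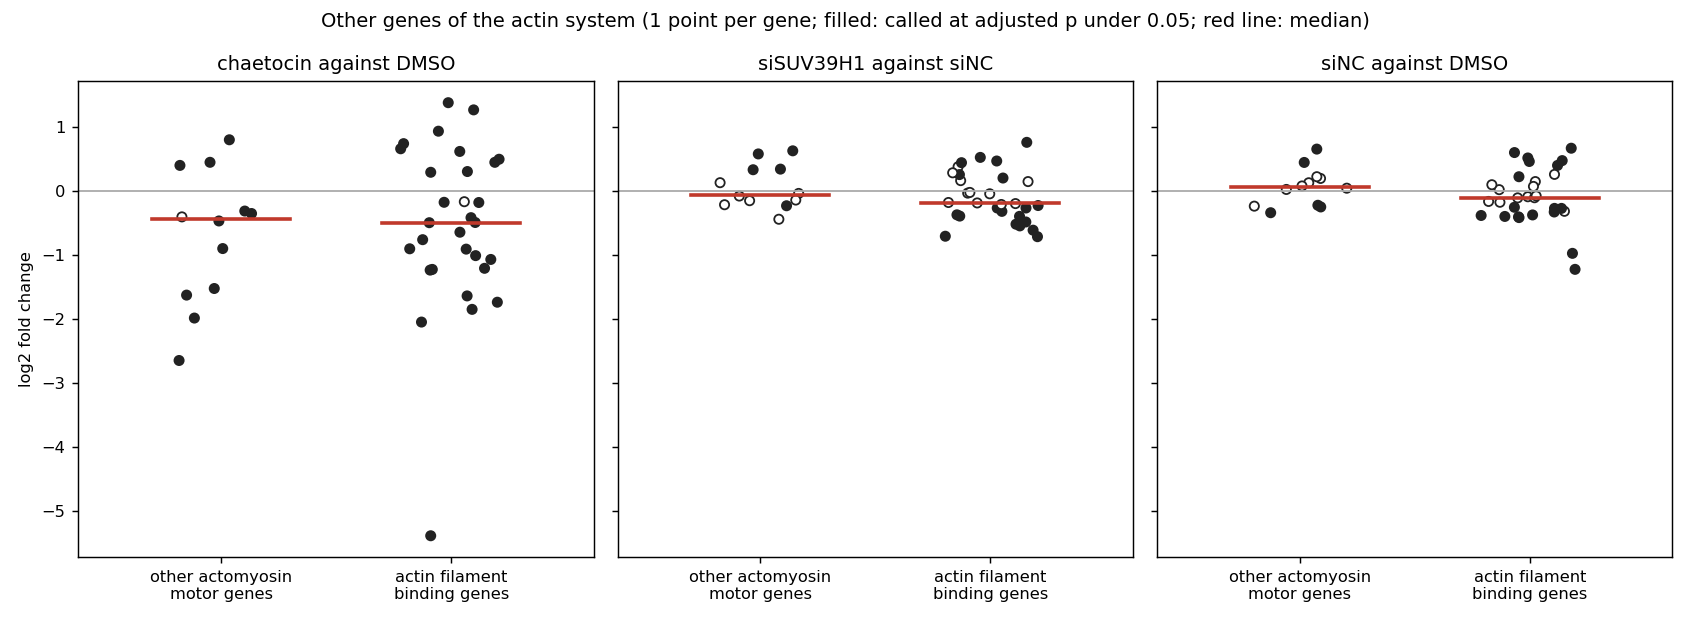
Log2 fold change of every tested gene (points, spread sideways at random) of 2 lists of actin genes in 3 comparisons, filled where called at an adjusted p under 0.05, with the list's median as a red line. With chaetocin the medians lie at -0.43 for motor genes and -0.49 for filament binding genes, and single genes reach from -5.39 for TMOD1 to 1.38 for LIMA1.

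SRF and its cofactors were measured beside these lists. SRF averaged 51.5 ± 5.63 CPM with chaetocin, 114 ± 9.17 with siSUV39H1, 101 ± 2.03 with siNC and 94.3 ± 3.26 with DMSO. It fell with chaetocin (-0.87 ± 0.08, edgeR adjusted p = 6.56e-08), and its changes with siSUV39H1 relative to siNC (0.18 ± 0.08) and siNC relative to DMSO (0.09 ± 0.08) were not called. MRTFA fell with chaetocin (-0.50 ± 0.09), rose with siSUV39H1 relative to siNC (0.26 ± 0.09) and fell with siNC relative to DMSO (-0.29 ± 0.09). MRTFB fell with chaetocin (-0.35 ± 0.14) and rose with siSUV39H1 relative to siNC (0.45 ± 0.13), while its value for siNC relative to DMSO was -0.19 ± 0.14 and not called. MYOCD, the SRF cofactor of smooth and heart muscle, was at 0 counts in all siSUV39H1 and DMSO libraries and at no more than 0.02 tpm elsewhere.

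Because the members include classic targets of SRF, their promoters were searched for the CArG box, a stretch of 10 bases that starts with CC, ends with GG and has only A or T at the 6 bases between. RefSeq promoter windows of 300 bases (250 before the transcription start and 50 after, GRCh38.p14) were at hand for 7 of the 10 genes, 12 windows in all: TPM1, TPM2, TPM3, TPM4, ACTA2, ACTG1 and CNN1. The motif reads the same on both strands. An exact box stood in the window of ACTG1 and in 1 of the 3 windows of TPM4. ACTA2 had 2 stretches that depart from it at 1 of the 6 middle bases, in 1 of its 2 windows. Each is shown 5′ to 3′ on the strand of the gene, with the box in capitals:
ACTG1: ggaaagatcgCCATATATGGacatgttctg
TPM4: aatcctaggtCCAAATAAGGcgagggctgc
ACTA2, upstream: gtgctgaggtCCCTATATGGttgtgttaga
ACTA2, downstream: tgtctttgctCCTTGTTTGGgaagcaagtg
The ACTG1 stretch lies at chr17:81512874-81512903 on the minus strand and its box starts 94 bases before the transcription start; that of TPM4 lies at chr19:16067355-16067384 on the plus strand, with the box 173 bases before the start. The ACTA2 stretches lie at chr10:88952875-88952904 and chr10:88952825-88952854 on the minus strand, 121 and 71 bases before the start. Of all 35116 promoter windows, 1.29% held an exact box and 6.94% a stretch with 1 different middle base. The 2 genes with an exact box did not move alike: ACTG1 changed by -1.68 with chaetocin and 0.04 with siSUV39H1 relative to siNC, and TPM4 by -0.65 and 1.69. The match is a description of these letters and says nothing of whether SRF binds there, and the windows without it say nothing of SRF either.

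Markers of cell types were measured beside these genes. Of 15 markers of smooth muscle and mural cells, 14 were tested, of which 8 were called lower and 4 higher with chaetocin, where 38.4% of all tested genes were called lower and 41.1% higher; their summed level was 140.2 to 154 tpm with chaetocin, 368 to 429.9 with siSUV39H1, 278 to 348 with siNC and 310.1 to 384 with DMSO. The list was not uniform. MYH11, the smooth muscle myosin heavy chain, averaged 1.78 ± 0.366 CPM with chaetocin and 0.404 ± 0.133 with DMSO and was called higher (2.12 ± 0.35). It averaged 0.428 CPM with siNC and 0.539 with siSUV39H1, so that its passing of the low-count filter leaned on the chaetocin libraries. Nothing is read from its call. DES, the filament protein desmin, averaged 0.434 ± 0.113 with chaetocin and 0.719 ± 0.219 with DMSO and was not called. Other genes of smooth muscle had more reads in DMSO than MYH11 and DES had. LMOD1, an actin nucleator, averaged 6.89 ± 0.826 CPM with chaetocin and 119 ± 7.84 with DMSO (-4.10 ± 0.10). SYNPO2 averaged 42.8 ± 4.61 with chaetocin and 67.0 ± 5.99 with DMSO (-0.65 ± 0.12). SMTN averaged 42.2 ± 2.79 with chaetocin and 41.2 ± 3.49 with DMSO and was not called. The mural cell receptors PDGFRB (-3.51 ± 0.10) and NOTCH3 (-2.77 ± 0.11) fell with chaetocin, and ABCC9 rose (3.17 ± 0.22). Of 11 fibroblast and myofibroblast markers, 8 were called lower and 3 higher with chaetocin, with a summed level of 6200.0 to 7412 tpm with chaetocin, 12740 to 13392 with siSUV39H1, 12037 to 12782 with siNC and 13492 to 13813 with DMSO, to which VIM and COL1A1 gave most. Of 14 striated muscle markers found in the files, 7 were tested, 4 called lower and 3 higher with chaetocin. NEB, 1 of the 3, averaged 0.0878 CPM with DMSO and 2.19 with chaetocin, and passed the filter on low counts only through chaetocin. MYH3, another, averaged 0.404 with DMSO and 1.73 with chaetocin, so that nothing is read from that count. The summed level of the striated list stayed at 6.62 to 9.38 tpm with chaetocin, 18.6 to 22 with siSUV39H1, 38.7 to 43.2 with siNC and 18.2 to 21.7 with DMSO. All 10 tested noradrenergic neuroblast markers out of 11 were called lower with chaetocin and again with siNC relative to DMSO. For siNC relative to DMSO, 18.2% of all tested genes were called lower and 17% higher. The summed level of these markers was 113 to 116 tpm with chaetocin, 757 to 845 with siSUV39H1, 596 to 608 with siNC and 1062 to 1279 with DMSO. The labelled cell type thus showed its defining genes in the DMSO libraries, among them DBH, with 2.15 ± 0.238 CPM with chaetocin and 167 ± 18.4 with DMSO; TH was at 0 counts in DMSO and siNC. The part of such cell-type genes in the changes of the actin and tropomyosin genes was not tested.

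Finally, the effect of chaetocin was set against that of siSUV39H1 for each gene, as the difference of the 2 log2 changes in the same fit. All 10 genes were called, 9 with a lower and 1, MYL9, with a higher value for chaetocin, where 33.7% of all tested genes were called lower and 33.9% higher; as the genes were chosen on these values, the differences are a description. They ran from -3.18 ± 0.31 for CNN1 to -0.53 ± 0.09 for TPM3 among the 9, and TPM4 differed by -2.34 ± 0.10. Against DMSO, siSUV39H1 gave 1 gene called higher (TPM4) and 4 lower (TPM1, -0.28 ± 0.07; TPM2, -0.31 ± 0.10; TAGLN, -0.61 ± 0.09; CNN1, -1.15 ± 0.19), beside 22.3% called higher and 25.9% lower among all tested genes. The TPM2 call was lost without DMSO replicate 3 (-0.18) or siSUV39H1 replicate 2 (-0.26) or 3 (-0.30) and on tpm (-0.15). The cytoplasmic actins and ACTA2 were not called in that comparison, at -0.16 for ACTB, -0.18 for ACTG1 and -0.14 for ACTA2.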

How the data were processed

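Total RNA of SK-N-SH cells was isolated with Trizol for DNBSEQ libraries, per the labels' protocols. The authors deposited expected counts as RSEM makes them, with FPKM and TPM beside them for every library, per the file headers. Per the submitters' processing notes, the tools were Bowtie2, RSEM 1.3.1 and DESeq2 1.4.5 on build hg38, with no step named for each. Which annotation, strand setting and read filters were applied is not given in the sources used here. Deposited group averages went unused. All 12 libraries were mapped by name, with 0 columns unmapped.

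Expected counts were rounded, filtered by filterByExpr, scaled by TMM and fitted in 1 model of 12 libraries by edgeR 4.0.16 (quasi-likelihood test, R 4.3.3), with Benjamini-Hochberg adjustment over 15051 genes, 8 residual degrees of freedom (biological coefficient of variation 8.87%). The same fit was run on simulated counts in which only a small part of the genes changed. With chaetocin most genes were called, so that the simulation says nothing of scaling or calls in that setting. CPM are counts-per-million of the TMM-scaled library size. Depth was 18004632 to 19976995 expected counts per library, which makes counting error small for all members but CNN1 and MYL9. With 3 against 3 libraries a permutation test of 1 gene cannot go below 0.1, so none is given.

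The members and the gene lists were chosen with earlier results of these data known. Named are all 10 members; from each list, up to 2 genes called higher and 2 called lower with the largest change and a mean of at least 5 CPM; SRF, MRTFA and MRTFB; and the 3 genes nearest to a member in centred log2(CPM + 0.5). 1 further gene list and 2 single genes, 1 of them a cell-type marker, are not reported here. SUV39H1, MYOCD and the cell-type markers are named outside that rule, after their values were seen. Gene coordinates come from RefSeq (GRCh38.p14), which held all 10 identifiers, and 3′ UTRs from the longest annotated UTR of a gene. The alternatives were RLE or no composition scaling, other filters, DESeq2 1.42.0, limma 3.58.1 on log2(TPM + 1) or log2(TPM + 0.1), the libraries of 1 comparison alone, the replicate number as a block, each library left out, and shares taken from FPKM or expected counts.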

Additional observations from a re-analysis of the deposited data

Results flagged for a closer look

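All 10 genes drew attention because their change with chaetocin relative to DMSO differed from their change with siSUV39H1 relative to siNC, by the difference of both changes in edgeR's fit of all 12 libraries. The difference was -1.92 for ACTB, -1.72 for ACTG1 and -1.73 for ACTA2 on the log2 scale. It was -1.88 for TAGLN, -3.18 for CNN1 and 3.49 for MYL9, whose counts are few. For the tropomyosins it was -1.43 for TPM1, -1.90 for TPM2, -0.53 for TPM3 and -2.34 for TPM4. For TPM4 the siSUV39H1 change (1.69) made up more of the difference than the chaetocin change (-0.65), and for the other 8 genes that were lower with chaetocin the chaetocin change made up most of it. The genes were chosen on these values, so that the differences describe them. Groups of 3 libraries were not searched for single libraries that stand apart.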

How the results depend on the processing

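No change of a member reversed from a called value under any alternative. The 9 lower and 1 higher calls with chaetocin held in every alternative run, also for the difference between the chaetocin and siSUV39H1 changes. The higher call is that of MYL9, which passed the filter of the main fit only through the chaetocin libraries, so that its persistence shows nothing. Apart from runs with 1 library left out, its log2 change with chaetocin ran from 0.67 to 2.95 over the alternatives. That of CNN1 ran from -3.27 to -2.22. Members called higher with siSUV39H1 relative to siNC numbered 5 on log2(TPM + 0.1), where TPM3 and ACTG1 joined, and members called higher relative to DMSO numbered 2 with library totals alone, on log2(TPM + 1) and on log2(TPM + 0.1). Members called lower with siNC relative to DMSO numbered 6 with library totals alone, where ACTG1 joined, and at most 7 in any alternative. Motor genes called higher with chaetocin numbered 5 with no filter on low counts; those called lower with siSUV39H1 relative to siNC numbered 0 on both log2 TPM scales and in the fit of the 6 libraries alone. With each library left out, members with siSUV39H1 relative to siNC ranged from 1 to 4 called higher and from 0 to 2 called lower, motor genes called lower from 0 to 1 and filament binding genes called higher from 3 to 8. For siNC relative to DMSO, motor genes called lower ranged from 1 to 3. The TPM4 share of the tropomyosins was 25.2% with chaetocin, 25.9% with siSUV39H1, 9.97% with siNC and 20.9% with DMSO when taken from expected counts, which are not per length, and the ACTA2 share of the actins was 2.54% with chaetocin, 2.14% with siSUV39H1, 1.91% with siNC and 2.10% with DMSO. Same-numbered libraries did not deviate together in every pair (correlations from -0.66 to 0.35), so the numbers were not taken as pairs. Some libraries of different number deviated together more. Against an siNC library of another number, siSUV39H1 library 1 reached 0.71 and siSUV39H1 library 2 reached 0.66, which the fit does not model. With the replicate block the ACTA2 change with siSUV39H1 relative to siNC was 0.23 (adjusted p = 0.0781 in edgeR). In that run motor genes called lower with siNC relative to DMSO numbered 1. Scaling by totals raised every chaetocin change by about the shift of the median gene. On the TPM scale, unlike on CPM, the siSUV39H1 libraries of ACTB, ACTG1 and ACTA2 lay above all siNC libraries and those of TAGLN below. The cause of these differences was not tested. Depth limits MYL9 and CNN1, whose counts per library were at most 21 and 134.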
